A study of Sinohyriopsis cumingii with 10 samples.

Results

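The transcripts described here are 43 contigs from the pearl sac of Sinohyriopsis cumingii, a freshwater mussel farmed for pearls (also called Hyriopsis cumingii), that were abundant at 0 h after implantation, lower in every library from 12 h to 7 d, and abundant again at 14 and 30 d. They were chosen from 211674 contigs, of which 211508 could be read in all 10 files. A contig is a stretch of assembled transcript, so that 1 gene may be represented by more than 1 of them. The choice rested on CPM, the reads of a contig scaled to a common library total (1000000 reads), and on L, which is log2(CPM + 1). For each contig a score was taken as the lowest L of 0 h, 14 d and 30 d minus the highest L of 12, 24, 48 and 96 h and 7 d. A contig was taken if its score was at least 1, its CPM was at least 5 at 0 h, 14 d and 30 d and its mean CPM was under 1000. Its L at 0 h also had to lie within 1 of the mean L of 14 and 30 d, and the mean L of 2 and 6 h less than 1 above 0 h. Since these values chose the contigs, the low levels from 12 h to 7 d and the high levels at the ends are a description and carry no test.

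A pearl sac is the pouch of epithelium that grows out of a piece of mantle grafted into a host mussel. The graft has to survive the wound and the blood cells of the host that gather around it, and its outer epithelial cells then spread, close into a sac and take up the secretion of shell material that ends in nacre. A transcript that is low while the sac is being built and high before and after it could come from any of the cells present, since the sac lies inside the tissue of the host. In RNA of a whole tissue, fewer cells of a type and less RNA per cell cannot be told apart.

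One library was sequenced for each of 10 times after implantation: 0, 2, 6, 12, 24, 48 and 96 h and 7, 14 and 30 d. All mussels were 2 years old, with shells of 9 to 10 cm, were kept in tanks of recirculating water on algae, and every library carries the tissue label pearl sac, the 0 h library included. No strain, genotype or agent other than the implantation is named, and the labels do not say how many mussels a library holds or what tissue was cut at 0 h. No time was replicated, so no pair of times can be tested, and differences between times and between mussels cannot be told apart. Library totals ran from 20315910 to 24069268 reads. The intervals given below are exact 95% intervals of the counts and cover counting error only, since reads copied by PCR are not independent molecules. The files pair no contig with a gene name or a sequence, so no cell type marker could be looked up, the tissue label could not be checked, and no contig is given a function.

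Of the readable contigs, 7475 had a mean under 1000 CPM and at least 5 CPM at 0 h, 14 d and 30 d, and these, the chosen contigs included, serve below as the background. A score of at least 1 was reached by 51 of them. Of the 51, 8 were left out because their late level was more than 2-fold from 0 h (5 of them ended above 0 h and 3 below), and none because of 2 and 6 h. The remaining 43 are 0.575% of the 7475. Their scores ran from 1.02 to 2.43 with a median of 1.32, and only 9 reached 1.5 and 2 reached 2. The limit cuts through a continuous range. The 5 contigs just inside it had scores of 1.02, 1.03, 1.04, 1.04 and 1.05, and the 5 just outside had 0.98, 0.98, 0.98, 0.97 and 0.97. The number of contigs depends on how the libraries are scaled: with TMM factors, which assume that most transcripts do not change, 153 met the rule, and 31 of the 43 were among the 150 highest of these. It was also larger without single libraries, with 199 contigs when 0 h was left out of the rule, 120 without 14 d and 110 without 7 d. Leaving out a library removes a condition from the rule, so a larger number is no sign of dependence on that library.

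The 43 contigs had a shared trough from 12 h to 7 d. Every one of them kept reads in all 10 libraries, the smallest count being 2 reads. In 4 contigs some library held fewer than 10 reads, and for these a low level and absence were not told apart. The median level was 21.6 CPM (0 h), 7.28 (2 h), 8.71 (6 h), 4.15 (12 h), 3.12 (24 h), 4.09 (48 h), 4.43 (96 h), 5.12 (7 d), 19.5 (14 d) and 22.7 (30 d). Over the 7475 background contigs the median was 14.2 CPM (0 h), 13.3 (2 h), 11.6 (6 h), 16.9 (12 h), 17.7 (24 h), 24.0 (48 h), 22.4 (96 h), 26.8 (7 d), 22.6 (14 d) and 18.0 (30 d). With library totals the background was thus at its highest at 7 d, in the trough of the 43. This depends on scaling: with TMM the median difference of the background from 0 h was -0.46 at 48 h and -0.43 at 7 d. Together the 43 held 67960 reads at 0 h, which is 0.300% of that library (0.297% to 0.302%), 0.107% at 2 h and 0.134% at 6 h. Their share was 0.0689% (12 h), 0.0571% (24 h), 0.0551% (48 h), 0.0581% (96 h) and 0.0787% (7 d), then 0.251% (14 d) and 0.310% (30 d). A single contig, with a mean of 391 CPM, held much of these reads. Without it the sum was 2140 CPM at 0 h, 383 CPM at 48 h and 2420 CPM at 30 d. Each of the other contigs was chosen for the same course, so nothing is read from this sum.

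**Figure D1:**
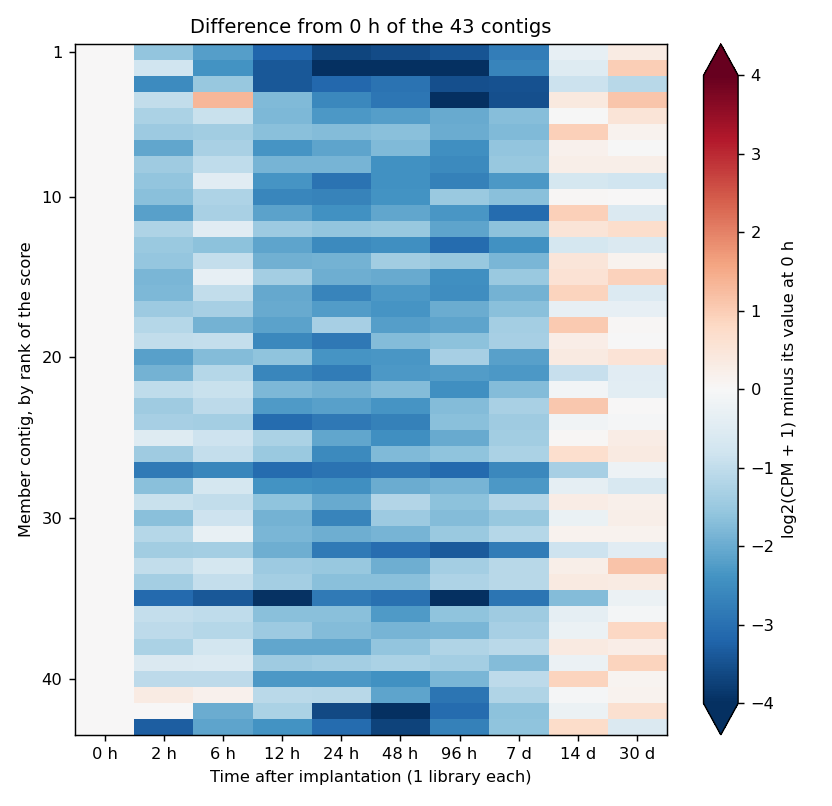
Difference from 0 h of each of the 43 contigs (rows, by rank of the score) in the 10 libraries (columns, in order of time), as log2(CPM + 1) minus its value at 0 h, with blue below and red above 0 h. All rows are blue from 12 h to 7 d, as the rule requires, most are already blue at 2 h and 6 h, and rows 41 and 42 are not lower at 2 h.

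The contig with the highest score, contig097783 (1382 bases), was lower in each library than in the one before from 0 h to 24 h, and its largest step back was the one from 7 to 14 d. It stood at 22.6 CPM (0 h), 6.96 (2 h), 4.10 (6 h), 1.59 (12 h), 0.83 (24 h), 0.98 (48 h), 1.13 (96 h), 2.49 (7 d), 17.8 (14 d) and 28.5 (30 d). Its lowest library, 24 h with 20 reads, lay 27.2-fold below 0 h (17.4 to 44.8). Its level at 14 d was 7.15-fold that at 7 d (5.37 to 9.69).

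The second in rank, contig073105 (2016 bases), was lower in each library than in the one before from 0 h to 96 h and then returned. It stood at 33.6 CPM (0 h), 19.1 (2 h), 5.62 (6 h), 2.27 (12 h), 0.87 (24 h), 0.46 (48 h), 0.30 (96 h), 4.57 (7 d), 23.0 (14 d) and 66.9 (30 d). At 96 h it had 6 reads, 114-fold below 0 h (52.1 to 311), and at 30 d it was 1.99-fold above 0 h (1.82 to 2.17). The order of its 24, 48 and 96 h levels rests on 21, 10 and 6 reads, whose intervals overlap between neighbours.

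Apart from these, the strongest return from 7 d to 30 d in L, which counts low levels less than a ratio of CPM does, was that of contig019193 (1092 bases). It stood at 98.5 CPM (0 h), 48.9 (2 h), 250.8 (6 h), 28.2 (12 h), 15.6 (24 h), 12.4 (48 h), 0.39 (96 h), 7.61 (7 d), 128 (14 d) and 213 (30 d). The 6 h library held its highest level, 2.55-fold above 0 h (2.42 to 2.68), and it was the only one of the 43 more than 2-fold above 0 h at 2 or 6 h. Its level at 96 h rested on 8 reads and lay 250-fold below 0 h (127 to 580), the deepest point of any of the 43.

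The next strongest return in L was that of contig014745 (1096 bases), whose 5 levels from 12 h to 7 d spanned 1.02 in L. It stood at 91.0 CPM (0 h), 19.3 (2 h), 26.4 (6 h), 29.0 (12 h), 17.0 (24 h), 17.5 (48 h), 35.6 (96 h), 19.3 (7 d), 116 (14 d) and 133 (30 d). Its level in the 1 library of 2 h was 0.213 of the 0 h level (0.191 to 0.236) and within the range of its 12 h to 7 d levels.

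**Figure D2:**
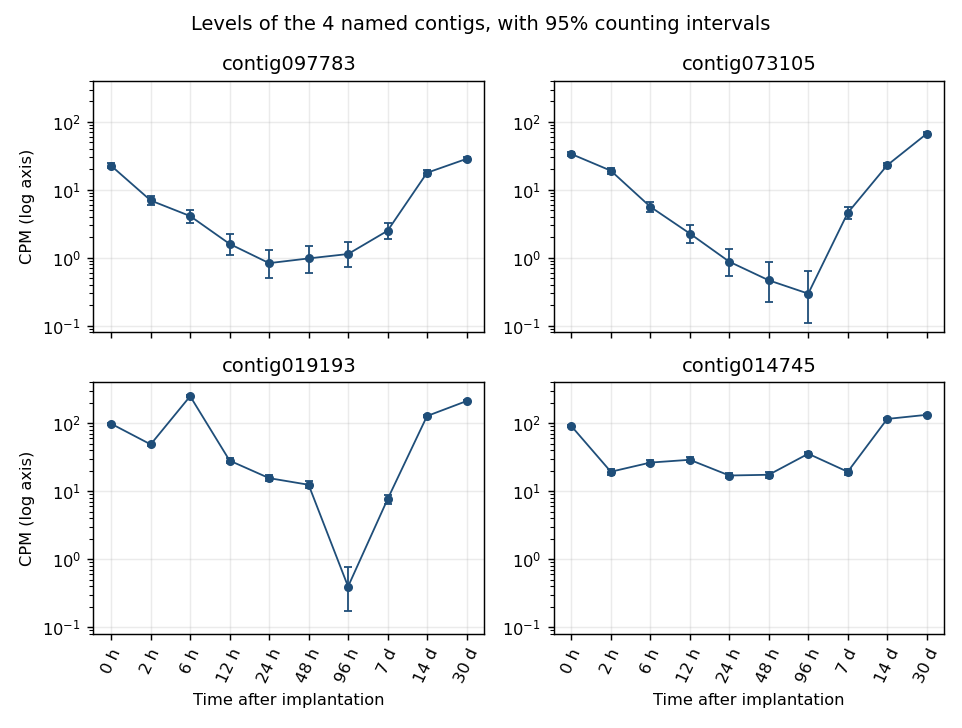
Levels of the 4 named contigs in CPM (log axis) at each time after implantation, with exact 95% counting intervals of the 1 library per time as bars. contig097783 and contig073105 are at or below 5.62 CPM from 6 h to 7 d, contig019193 has its highest level at 6 h (250.8 CPM) and its lowest at 96 h (0.39 CPM), and contig014745 stays between 17.0 and 35.6 CPM from 2 h to 7 d.

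The libraries of 2 and 6 h are those the rule hardly used, since it kept only the mean L of both from lying 1 or more above 0 h. Most of the 43 contigs were below 0 h before 12 h, though the median difference was smaller than at any time from 12 h to 7 d. At 2 h, 33 of the 43 contigs (76.7%) were at least 2-fold below 0 h on the log2(CPM + 1) scale, against 9.70% of the background. At 6 h, 23 of the 43 (53.5%) were, against 8.27% of the background. Both times together had 20 of the 43 at least 2-fold below 0 h, against 3.01% of the background, and at least 1 of the 2 times had 36 of the 43, against 15.0%. The median difference from 0 h was -1.42 at 2 h and -1.01 at 6 h for the 43, and -0.27 and -0.42 for the background. A level below 0 h by any amount was seen in 41 of the 43 at 2 h, against 65.8% of the background, and in 41 of the 43 at 6 h, against 77.4%. In each of these 41, at either time, the counting interval of the ratio to 0 h lay wholly below 1, and in 30 contigs at 2 h and 18 at 6 h it lay wholly below 0.5. Such interval calls were not counted in the background, so nothing is read from them. With TMM scaling of the same contigs, 38 of the 43 were at least 2-fold below 0 h at 2 h, against 13.8% of the background, and 18 at 6 h, against 4.47%. With the contigs chosen anew under TMM scaling, the share among the 150 highest was 66.0% at 2 h, against 13.3% of the 8198 contigs that could be chosen, and 18.0% at 6 h, against 4.21%, so the 6 h share depends strongly on scaling. These comparisons lean on the same 0 h library in which the contigs were required to be abundant. Among the 150 contigs chosen without 0 h, 34.0% were at least 2-fold below 0 h at 2 h, against 8.58% of the 9250 contigs that could be chosen so, and 24.7% at 6 h, against 7.19%. That choice set no minimum at 0 h and no limit on the return or on 2 and 6 h. Of its 150 contigs, 35 belong to the 43, and 45 had 0 h at least 2-fold above the highest of 12 h to 7 d. Its shares are thus those of a largely different set.

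**Figure D3:**
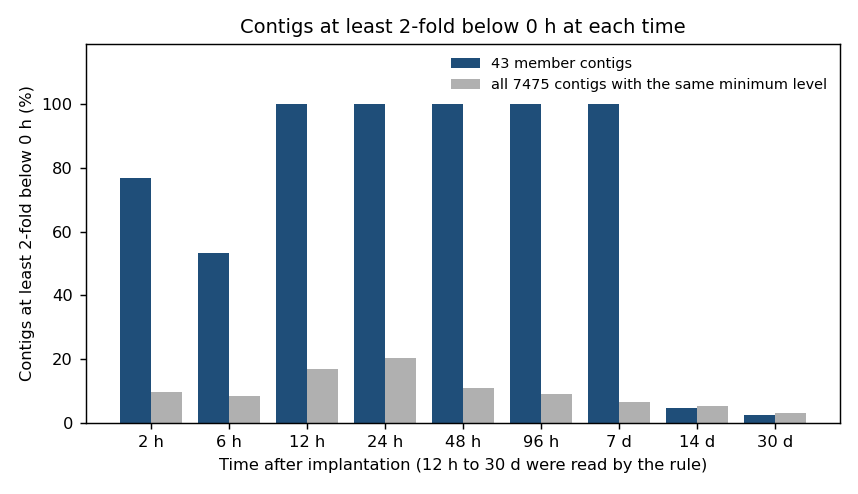
Percent of the 43 contigs, and of the 7475 background contigs with the same minimum level, that were at least 2-fold below 0 h on the log2(CPM + 1) scale at each later time. Library totals were used for scaling. The bars of the 43 from 12 h to 7 d are at 100% because the rule requires it; at 2 h they are at 76.7% against 9.70% of the background, and at 6 h at 53.5% against 8.27%.

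How much of the descent from 0 h to the trough was seen at 2 and 6 h depends on scaling. The rule used 0 h and the libraries from 12 h to 7 d, and no background was computed, so these shares are a description. Differences between times and between mussels cannot be told apart here either. As a share of the difference between L at 0 h and mean L of the 5 libraries from 12 h to 7 d, the difference at 2 h had a median of 69.8% over the 43 contigs (quartiles 53.8% and 81.9%). At 6 h the median was 53.7% (quartiles 44.6% and 64.8%). With TMM scaling the medians were 55.0% at 2 h (quartiles 43.7% and 68.0%) and 32.5% at 6 h (quartiles 25.4% and 42.0%). The 6 h level was above the 2 h level in 30 of the 43, against 40.3% of the background, and the counting interval of the ratio excluded 1 in 24 of those contigs. It was below the 2 h level beyond its interval in 9, and these interval calls were not counted in the background. With TMM scaling 38 of the 43 were higher at 6 h than at 2 h, against 60.9% of the background. Below the highest of their own 12 h to 7 d levels were 15 of the 43 contigs at 2 h, and 7 at 6 h. No background share was counted for this, so nothing is read from it.

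The early course was not the same in all 43 contigs. The grouping by 2 and 6 h used here, and the contigs described by their length alone rather than by name, were chosen after their values had been seen. In 20 contigs both 2 and 6 h were at least 2-fold below 0 h, in 13 contigs 2 h alone, in 3 contigs 6 h alone and in 7 contigs neither. The 20 had a median difference from 0 h of -1.52 (2 h), -1.36 (6 h), -2.28 (12 h) and -2.49 (24 h). The 13 had -1.42 (2 h), -0.82 (6 h), -1.82 (12 h) and -2.07 (24 h). The smaller difference of the 13 at 6 h follows from the grouping. The 7 had -0.89 (2 h), -0.69 (6 h), -1.45 (12 h) and -2.02 (24 h).

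Among the contigs with both early times low, the lowest level at 2 h relative to 0 h was that of a contig of 2348 bases. It stood at 64.7 CPM (0 h), 5.70 (2 h), 14.2 (6 h), 11.5 (12 h), 6.73 (24 h), 4.09 (48 h), 9.16 (96 h), 20.5 (7 d), 107.5 (14 d) and 42.7 (30 d). Its 2 h level was 0.0880 of its 0 h level (0.0730 to 0.106), and it was also the contig nearest to the score limit. A contig of 1104 bases was lowest at 6 h relative to 0 h, at 0.0900 (0.0801 to 0.101), with 166 CPM (0 h), 18.2 (2 h), 14.9 (6 h), 49.0 (14 d) and 142 (30 d). Its return was late, since its 30 d level was 2.89-fold its 14 d level (2.70 to 3.11).

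The exceptions at 2 h were 2 contigs of low rank. A contig of 5513 bases was above 0 h at both early times, with 27.7 CPM (0 h), 35.0 (2 h), 31.0 (6 h), 12.6 (12 h), 12.3 (24 h), 5.62 (48 h), 2.76 (96 h), 11.6 (7 d), 26.9 (14 d) and 30.4 (30 d). Its 2 h level was 1.26-fold the 0 h level (1.13 to 1.40). A contig of 2773 bases was level with 0 h at 2 h, at 1.01-fold (0.922 to 1.10), and low from 6 h, with 45.3 CPM (0 h), 45.6 (2 h), 10.6 (6 h), 18.1 (12 h), 2.78 (24 h), 1.16 (48 h), 4.43 (96 h), 13.8 (7 d), 37.9 (14 d) and 71.6 (30 d). The first library below 0 h was 12 h for the contig of 5513 bases and 6 h for that of 2773 bases. With 1 library per time the onset cannot be dated.

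**Figure D4:**
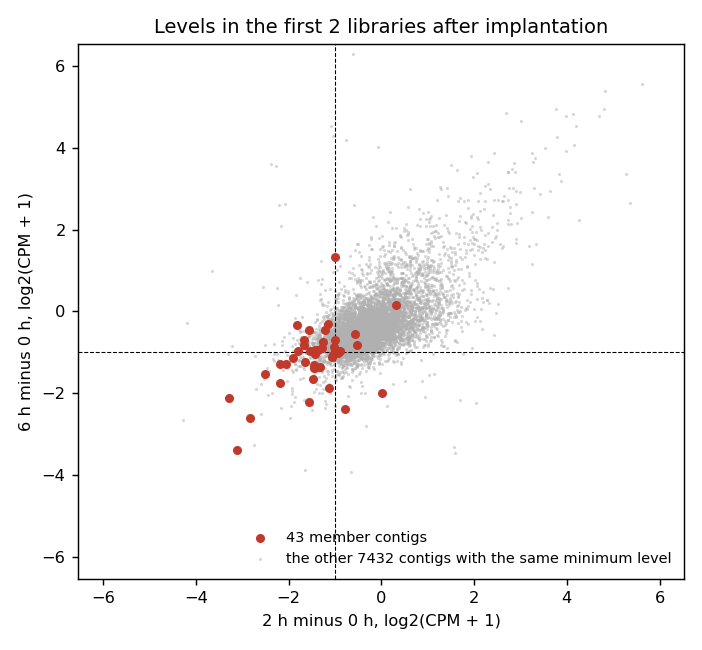
Difference from 0 h on the log2(CPM + 1) scale at 2 h (horizontal) and at 6 h (vertical) for the 43 contigs (red) and the other contigs with the same minimum level (grey), with dashed lines at 2-fold below 0 h. Of the 43, 20 lie in the lower left field, below both lines, against 3.01% of the background.

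Within the trough, the lowest library was 96 h in 14 contigs, 24 h in 13, 48 h in 11, 12 h in 3 and 7 d in 2. It was 48 h or later in 27 of the 43 (62.8%), against 27.2% of the background, whose lowest library of the 5 was 12 h in 39.9% and 24 h in 32.9%. The rule required all 5 libraries to be low, those of 48 h to 7 d included. With library totals the background was at its highest of the 5 there, so nothing is read from this comparison. The highest of the 5 libraries was 7 d in 21 contigs, 12 h in 8, 48 h in 8, 96 h in 4 and 24 h in 2. In the background 7 d was the highest of the 5 in 47.1%. The lowest library lay a median of 8.96-fold below 0 h in CPM, from 3.63-fold to 250-fold. It was at least 4-fold below in 40 contigs and at least 10-fold below in 17. The 5 libraries of one contig differed by a median of 0.93 on the log2(CPM + 1) scale from highest to lowest, with a range from 0.30 to 4.39, and the median over the background was 1.31. At 7 d the level was above that of 96 h in 36 of the 43, against 71.7% of the background, and with TMM scaling in 27 of the 43, against 37.6%; these libraries too were used in the choice. The trough in all 43 contigs was 2-fold or more below 0 h at each of its 5 times, which the rule fixes, while the background share was 16.8% (12 h), 20.5% (24 h), 11.0% (48 h), 8.98% (96 h) and 6.53% (7 d). The background share was larger with TMM scaling: 33.9% (12 h), 33.4% (24 h), 29.8% (48 h), 22.1% (96 h) and 25.9% (7 d), with all 43 still so at each time.

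The ratio in CPM of the lowest of 0 h, 14 d and 30 d to the highest of 12 h to 7 d, which the score selected, had a median of 2.65. Fewer than 10 reads in some library were found for 4 of the 43. One of these, of 240 bases, had 371 reads at 14 d and 2 at 7 d, a ratio of 184 whose interval ran from 50.6 to 1527. It stood at 8.24 CPM (0 h), 1.04 (2 h), 2.76 (6 h), 1.11 (12 h), 0.71 (24 h), 1.21 (48 h), 0.84 (96 h), 0.09 (7 d), 17.0 (14 d) and 5.18 (30 d).

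The return between 7 and 14 d was a step in all 43 contigs, which the rule fixes at 2-fold or more on the log2(CPM + 1) scale, and its size varied. In CPM, 14 d was a median of 3.96-fold above 7 d, from 2.12-fold to 184-fold. The median difference from 0 h was 0.06 at 14 d and 0.13 at 30 d, against 0.57 and 0.23 in the background. At 14 d, 23 of the 43 were above 0 h, against 77.7% of the background, and at 30 d 26 were, against 66.9%. At least 2-fold below 0 h were 2 of the 43 at 14 d, against 5.12% of the background, and 1 at 30 d, against 3.12%. The rule holds the mean of 14 and 30 d near 0 h, so nothing is read from these counts. The direction also depends on scaling: with TMM the median difference of the same contigs was -0.68 at 14 d and -0.37 at 30 d. In the background it was then -0.17 and -0.27. Above 0 h with TMM were 6 of the 43 at 14 d, against 40.7% of the background, and 10 at 30 d, against 30.4%. The sum of all 43 showed a return to 2508 CPM at 14 d and 3105 CPM at 30 d, against 2996 CPM at 0 h.

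The 43 contigs differed in the order of their 14 and 30 d levels. The rule used both levels and so limits how far they can lie apart, and the background shares are given with nothing read from them. The 30 d level was above the 14 d level in 23 of the 43 (53.5%), against 31.7% of the background, and beyond the counting interval in 19. It was below 14 d beyond the interval in 13, and neither interval call was counted in the background. At least 2-fold above 14 d at 30 d were 5 contigs, against 7.68% of the background, and at least 2-fold below were 5, against 17.3%. With TMM scaling, 31 of the 43 were higher at 30 d than at 14 d, against 45.0% of the background. The most abundant contig, of 2290 bases, was level between 14 and 30 d. It stood at 855 CPM (0 h), 311 (2 h), 342 (6 h), 209 (12 h), 182 (24 h), 167 (48 h), 215 (96 h), 266 (7 d), 680 (14 d) and 685 (30 d). Its 30 d level was 1.01-fold its 14 d level (0.984 to 1.03) and 0.800 of its 0 h level (0.783 to 0.818). A contig of 3378 bases was still low at 14 d, with 244 CPM (0 h), 33.4 (2 h), 39.2 (6 h), 28.1 (12 h), 30.5 (24 h), 32.1 (48 h), 27.1 (96 h), 39.9 (7 d), 96.1 (14 d) and 210 (30 d), a 2.18-fold step from 14 to 30 d (2.07 to 2.30).

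Each library of the rule was left out in turn and then read in the contigs chosen from the others. This was done after the values had been seen, and neighbouring times resemble each other. The background holds all contigs that could be chosen, not those with the rest of the course, so the shares are a description and no support. Of 59 contigs chosen without 12 h, 43 had 12 h at least 2-fold below the lowest of 0 h, 14 d and 30 d, against 10.5% of the background. The same held for 43 of 56 chosen without 24 h (13.4% of the background), 43 of 48 without 48 h (6.61%), 43 of 44 without 96 h (5.16%) and 43 of 110 without 7 d (2.69%). For these 5 libraries the 43 are the contigs described here, since they are those that pass with all libraries. Each of these shares thus restates how many contigs the rule adds without that library. The lower share at 7 d shows that 67 contigs with the rest of the course were less than 2-fold below at 7 d. In 106 of the 110 the 7 d level lay below the lowest end by any amount, against 12.3% of the background. At the ends, 43 of 62 contigs chosen without 30 d had 30 d at least 2-fold above the highest of 12 h to 7 d (4.64% of 7823 contigs; 39 of the 62 belong to the 43 described here), and 47 of 120 chosen without 14 d had 14 d so (5.03% of 7826). Among the 150 highest of those chosen without 0 h, 45 had 0 h at least 2-fold above the highest of 12 h to 7 d (2.31% of 9250). The left-out end lay above that level by any amount in 62 of 62 (30 d), 94 of 120 (14 d) and 87 of 150 (0 h). The shares of all contigs that could be chosen were 17.5%, 28.9% and 11.6%. The runs are not alike and used library totals only. Without 0 h the limits on the return and on 2 and 6 h also fell away. Without 14 d or 30 d the return was judged by the other of these times alone. The libraries are therefore not ranked by these shares.

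The 43 contigs were shorter than the background. The shortest had 95 bases and the longest 6166, and the median was 1720 bases (95% interval by ranks from 1132 to 2138), against a median of 2687 over the 7475. At least 1000 bases were reached by 74.4% of the 43, against 88.5% of the background, and 6 (14.0%) were under 500 bases, against 3.59%. The 43 also had lower mean levels, which a trough lowers, with a median of 10.4 CPM over the 10 libraries against 20.8 CPM. Between their own quartiles of mean CPM (4.91 and 30.9), 21 of the 43 had a median length of 1869 bases and 4633 background contigs had 2512. Length did not enter the rule itself, but the minimum of 5 CPM is not divided by length. With RPKM in place of CPM the rule gave 50 contigs, 32 of them among the 43, with a median length of 766.5 bases. Contigs of 1 transcript are not independent and the difference was not tested. Per length, the median level at 0 h was 15.3 RPKM (the same scaling, divided by the contig's length in kilobases) for the 43, with a range from 1.57 to 1226 RPKM, against a median of 5.94 RPKM in the background. At 24 h it was 2.75 RPKM against 6.58 RPKM, and at 30 d 18.2 RPKM against 7.27 RPKM.

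**Figure D5:**
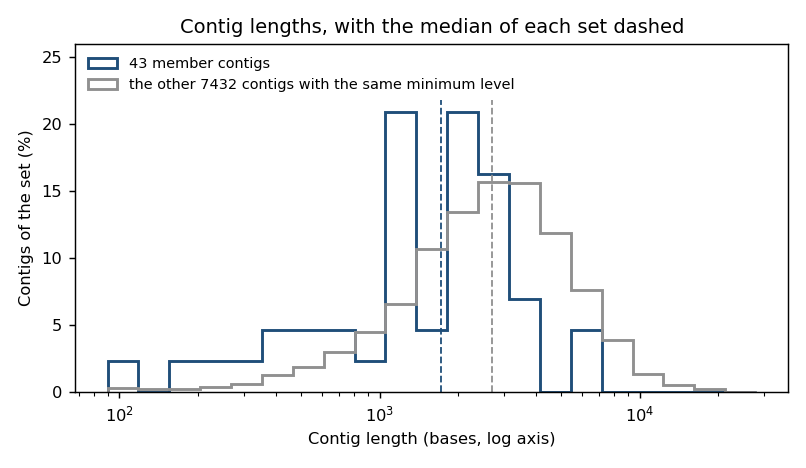
Lengths of the 43 contigs and of the other contigs with the same minimum level, in percent of each set (log axis of bases), with the medians dashed. The 43 have their median at 1720 bases, left of that of the other contigs.

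No pair of the 43 had neighbouring numbers in the assembly, the smallest distance between their contig numbers being 409. Whether contigs that lie apart in the numbering belong to the same transcript cannot be read from the files.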

How the data were processed

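The 10 pearl sac libraries, 1 per time, were made by random priming of purified mRNA, with size-selected cDNA and PCR, per the labels' protocols; how the contigs were assembled and the reads mapped is not stated in the labels. The deposited reads column was read as holding expected counts: it holds whole numbers apart from 0.5, which stands only where the RPKM is 0 and was read as 0 reads. The deposited RPKM values, per the file headers, served with the reads to give contig lengths, whose relative distance from a whole number was at most 5.6e-08. One line of the 30 d file is unreadable in place of 166 contigs, which held 22413 reads (0.105%) and were left out.

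CPM used the sum of each file's reads column, and L a pseudocount of 1 CPM. With 1 library per time no test was run. Ratios carry exact conditional binomial intervals (95%), and medians of lengths intervals by ranks. TMM factors (edgeR 4.0.16, R 4.3.3, 52894 contigs) and other settings were alternatives; other steps used Python 3.11.15 and scipy 1.17.1. The rule was tested on simulated data. Of the contigs named, 2 had the highest score and 2 of the others the highest L at 30 d minus L at 7 d. The members and these rules were chosen with earlier results of these data known. No genome or annotation was used here.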

Additional observations from a re-analysis of the deposited data

How the results depend on the processing

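Against 43 contigs, the rule was met by 153 with TMM factors, 118 with totals counted without the contigs at a mean of 1000 CPM or more, 15 with a pseudocount of 5 CPM, 164 with a score limit of 0.5 and 2 with a limit of 2; the other 9 settings that chose anew stayed between 32 and 64, and the runs without 1 library gave 44 to 199. The share at least 2-fold below 0 h at 2 h, 76.7%, was 88.4% with TMM for the same 43, 60.0% with the pseudocount of 5 CPM, 54.7% and 50.0% with the score limits of 0.5 and 2, and 34.0% to 77.3% without 1 library. At 6 h the share of 53.5% was 18.0% with TMM and members chosen anew, 34.0% and 100% with the score limits of 0.5 and 2, and 24.7% to 53.6% without 1 library. The share lowest at 48 h or later, 62.8%, was 86.0% with TMM for the same 43 and 49.3% to 69.5% without 1 library. The median difference of 30 d from 0 h, 0.13, turned to -0.18 with TMM, -0.37 with TMM for the same 43, -0.047 with totals without abundant contigs and -0.010 with the pseudocount of 5 CPM, was 0.65 with the score limit of 2, and lay between -0.083 when 30 d was left out and 2.08 when 0 h was. The median length of 1720 bases was 766.5 with RPKM in place of CPM, which lets in short contigs by its construction, and 1210.5 to 1968 without 1 library. The share of reads held by the 43 was larger in all 10 libraries with totals counted without the abundant contigs, as that total is smaller (0.688% in place of 0.300% at 0 h). Without 1 library the rule has fewer conditions, and without 0 h it sets no limit on the return. The cause of the other changes was not tested. The full 30 d total was added after seeing the data and gave the same 43. The share of the descent with TMM and the backgrounds of contigs chosen with TMM or without 0 h were also added after seeing the data. No paired analysis was possible because each time has 1 library. Depth limits most the contigs with under 10 reads in a library.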

Other observations

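A second set of contigs was put beside the 43, chosen after their values were seen. It holds 113 contigs with at least 5 CPM at 0 h that were at least 2-fold below 0 h at each time from 12 h to 7 d and still so at 14 and 30 d. At 2 h, 33 of the 43 regained contigs (76.7%) and 56 of the 113 that were not regained (49.6%) were at least 2-fold below 0 h, and at 6 h 23 of the 43 (53.5%) and 53 of the 113 (46.9%). Their median difference from 0 h was -1.42 in the 43 and -0.94 in the 113 at 2 h, and -1.01 and -0.93 at 6 h. The median level at 0 h was 21.6 CPM in the 43 and 26.2 CPM in the 113, and the median length 1720 and 1303 bases. These differences were not tested. Of the 7475 background contigs, 9.70% were at least 2-fold below 0 h at 2 h and 8.27% at 6 h. The 113 had a minimum at 0 h only, and the share over all such contigs was not counted. With TMM scaling the shares of the 43 were 88.4% at 2 h and 41.9% at 6 h, and none is given for the 113.

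With library totals, the course of the 43 was met by 43 contigs and the opposite course by 487. With TMM factors the numbers were 153 and 175. The opposite course means at least 5 CPM in all 5 libraries from 12 h to 7 d and at least 2-fold above the highest of 0 h, 14 d and 30 d, with no limit on 2 and 6 h or on the return, so the 2 counts follow rules of unequal strictness. TMM moves the log2 values of 7 d by -1.27 and those of 48 h by -1.07 relative to 0 h.

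Of the 166 contigs that cannot be read at 30 d, 9 had at least 5 CPM at 0 h and 14 d and a mean under 1000 CPM, and 0 of them met the rule in the other 9 libraries.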
